A study of Mus musculus with 15 samples.

Results

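The respiratory chain genes described here are 53 of the 33321 genes in the deposited count table. They were chosen by symbol: the 13 protein-coding genes of the mitochondrial genome, and 40 nuclear genes that encode 19 subunits of complex I, 4 of complex II, 6 of complex III, cytochrome c and 10 subunits of complex IV. All 53 had enough counts to be tested, among 16795 tested genes in all. RNA was sequenced in bulk from mouse corpus callosum, the large white matter tract that joins the hemispheres, in 15 libraries that fall into 5 groups of 3.

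LPC_Ipsil is the injured tissue 4 days after injection of lysophosphatidylcholine (LPC), a detergent-like lipid that strips myelin locally. LNIO_Ipsil is the injured tissue 4 days after white matter stroke induced with L-NIO, an inhibitor of nitric oxide synthase that constricts vessels. LPC_Contra and LNIO_Contra are tissue from the other side of mice given the same agents, also at 4 days. Sham_Ipsil is tissue around a saline injection in sham-operated mice, for which the labels name no separate day. No strain, sex, age or genotype is named in the labels, and RNA was depleted of ribosomal RNA and purified by its poly(A) tail. The labels do not say that replicates came from separate mice, so the p-values measure only the spread between these libraries, which may be technical.

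The respiratory chain sits in the inner mitochondrial membrane. Complexes I and II pass electrons from NADH and succinate to ubiquinone, complex III passes them to cytochrome c, and complex IV passes them to oxygen, while complexes I, III and IV pump the protons that drive ATP synthase (complex V). Its subunits come from separate genomes: the mitochondrial genome is transcribed as long RNAs that are cut into the single messages, and nuclear subunits are made in the cytosol and imported. In white matter, axons depend on this ATP to keep their ion gradients, and oligodendrocytes rely on it during myelin formation.

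Library totals ran from 14896445 to 20916606 counts. Markers of mature oligodendrocytes summed to 16396 to 32203 CPM over the 15 libraries. CPM are counts scaled to a common library size by the trimmed mean of M values (TMM). Neuronal markers summed to 8754 to 15082 CPM. With no other tissue among the libraries, these sums could not test the tissue label. Markers of ependyma and choroid plexus varied widely within groups, from 51.4 to 1385 CPM in Sham_Ipsil and 52.6 to 539 CPM in LPC_Ipsil. They ran from 133 to 717 CPM in LNIO_Ipsil, 42.2 to 1047 CPM in LPC_Contra and 80.5 to 1215 CPM in LNIO_Contra. Whether this spread bears on the respiratory chain values was not tested. In bulk tissue, fewer cells of a type and less RNA per cell cannot be told apart.

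Several libraries stood apart in these genes, and results that rest on them are given with and without them. LNIO_Ipsil replicate 1 had the highest level of all 15 libraries for 13 of the 13 mitochondrially encoded genes. LNIO_Contra replicate 1 was above the mean of the other libraries for the same 13 genes. LPC_Contra replicate 2 had the highest level of all 15 libraries for 35 of the 40 nuclear encoded genes. LNIO_Contra replicate 3 was above the mean of the other libraries for 40 of the 40 nuclear encoded genes. In LPC_Ipsil replicate 3, microglia and macrophage markers summed to 633 CPM, against 5328 and 3228 CPM in LPC_Ipsil replicates 1 and 2.

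The mitochondrial messages were far more abundant than the nuclear ones. In FPKM, fragments scaled for library size and for the annotated length of the gene, the sham level of the mitochondrial genes ran from 16041 ± 392 FPKM for ATP6 (SD, n = 3, as for all values after ± in FPKM or CPM) to 2347 ± 169 FPKM for ND3. Complex IV messages stood near the top: COX1, the catalytic subunit that reduces oxygen, had 15886 ± 150 FPKM, COX2, which takes the electron from cytochrome c, 15114 ± 808 FPKM, and COX3, the third core subunit, 12057 ± 498 FPKM. ATP6, COX1 and COX2 did not differ beyond their spread. ND1, which helps form the ubiquinone site of complex I, had 9080 ± 292 FPKM and CYTB, the only mitochondrially encoded subunit of complex III, 7575 ± 79.2 FPKM. In between came ND4 and ND2, pumping subunits of complex I, at 6644 ± 102 and 5610 ± 186 FPKM, ND4L, another of its membrane subunits, at 4950 ± 641 FPKM, and ATP8, a small subunit of complex V, at 3822 ± 601 FPKM. The lowest were ND6, ND5 and ND3, core membrane subunits of complex I, at 2766 ± 328, 2443 ± 69.0 and 2347 ± 169 FPKM, and these 3 also did not differ beyond their spread.

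Neighbouring mitochondrial genes share bases, which bears on how far their counts can be told apart. The shared bases, read from the GENCODE M21 transcripts of build GRCm38, are shown in capitals with their flanks on the plus strand of the mitochondrial genome (MT): ATP8 and ATP6 share 43 bases of a gene that is only 204 bases long, ND4L and ND4 share 7, and ND5 shares 14 with ND6, the only protein gene on the other strand.
ATP8 end and ATP6 start, MT:7902-7994: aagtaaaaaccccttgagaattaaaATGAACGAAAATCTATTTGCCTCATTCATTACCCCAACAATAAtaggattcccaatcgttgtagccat
ND4L end and ND4 start, MT:10142-10198: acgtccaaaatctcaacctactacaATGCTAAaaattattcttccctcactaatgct
ND5 end and ND6 end, MT:13527-13590: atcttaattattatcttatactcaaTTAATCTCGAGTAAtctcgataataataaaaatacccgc
Levels of ATP8 and ATP6, of ND4L and ND4, and of ND5 and ND6 are therefore uncertain to the extent that reads over these bases were assigned to either gene. How the counting treated strand or such reads is not given in the sources used here.

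In sham tissue every nuclear encoded message was below the lowest mitochondrial one, and complex IV genes had the highest levels among them. Cox8a, a small nuclear encoded subunit of complex IV, had 289 ± 25.6 FPKM in sham tissue, Cox6a1, another small subunit of that complex, 198 ± 35.5 FPKM, and Cox6b1, which faces the intermembrane space, 180 ± 12 FPKM. Sdha, the flavin-bearing catalytic subunit of complex II, had 63.5 ± 1.47 FPKM, and Cycs, somatic cytochrome c, 46.9 ± 2.64 FPKM. Ndufs1, the iron-sulfur subunit that carries electrons through complex I, had 13.1 ± 1.18 FPKM. Ndufb8, an accessory subunit of complex I whose protein is often probed as a marker of that complex, was the lowest at 1.27 ± 0.352 FPKM. From ATP6 to Ndufb8 the genes thus ranged over more than 4 powers of 10, but the low end was Ndufb8 alone, with Ndufs1 the next lowest. Ndufb8 shares 4.26% of its exon bases with Gm20538 on the same strand. Whether this lowered its count was not tested.

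**Figure D1:**
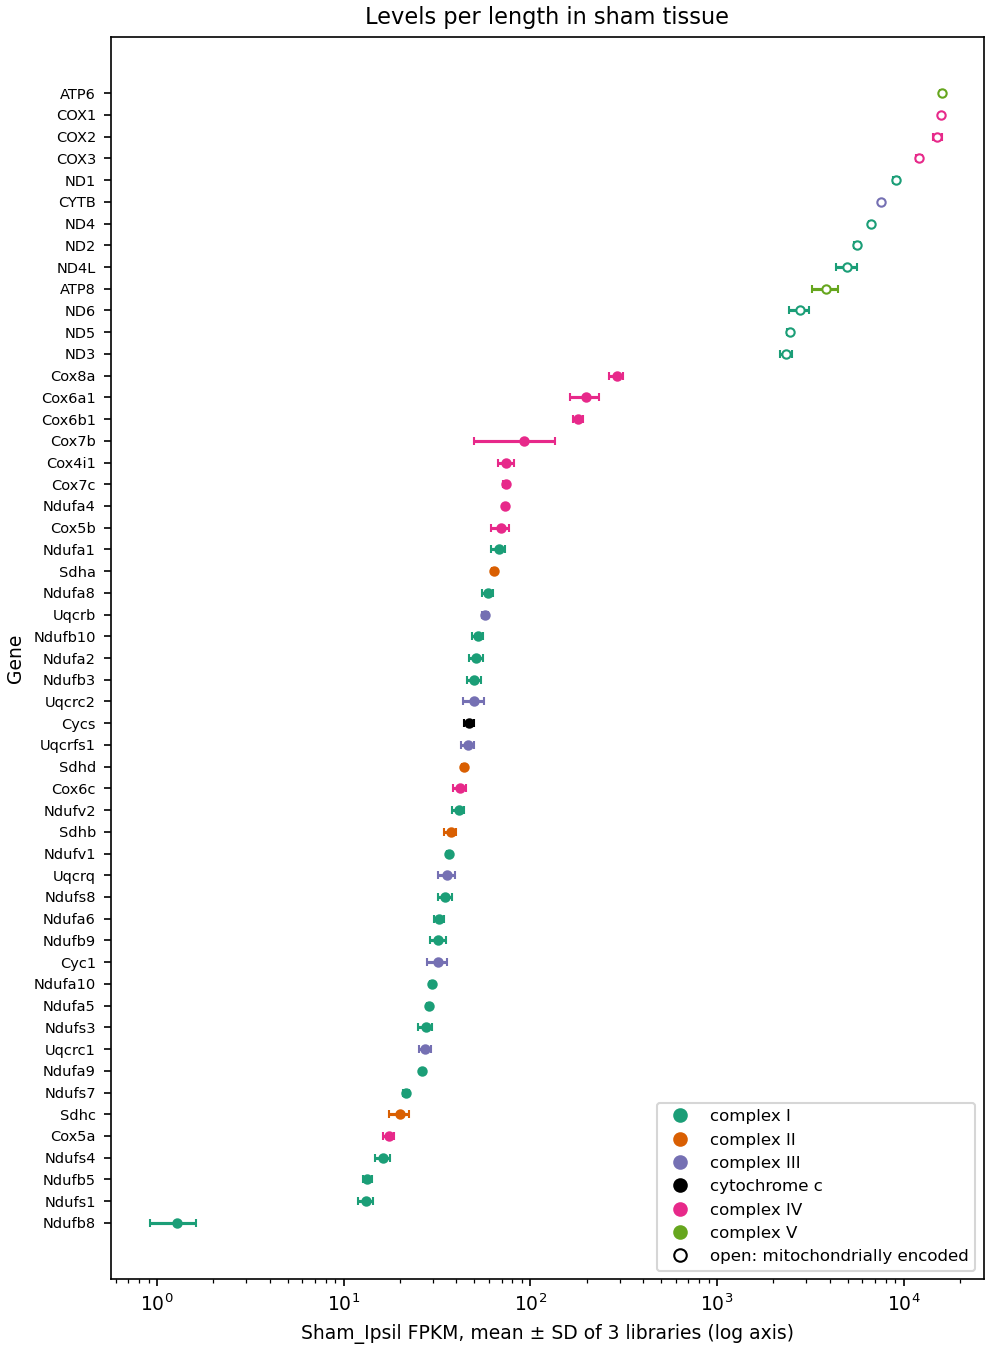
Mean level of each respiratory chain gene in the 3 Sham_Ipsil libraries, in FPKM on a log axis, with bars at ± SD. Colours give the complex and open symbols the mitochondrially encoded genes, which all lie above the highest nuclear encoded gene, Cox8a at 289 FPKM.

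The nuclear members are short genes: the transcript length implied by the ratio of counts to FPKM had a median of 1759.5 bases (419 to 8086), against 4283 bases over all tested genes, 87.2% of which were longer than the members' median. RefSeq promoter windows, the 250 bases before the gene start, were at hand for 30 of the 40. The motif of NRF-1, a transcription factor known for binding promoters of respiratory genes, written as GCGCA, any base, then GCGC and searched on both strands, was in 5 of the 30 (16.7%), against 1144 of 27025 genes (4.23%). The motif CCGGAAG of ETS factors such as GABP, also known at these promoters, was in 4 of the 30 (13.3%: Cox6a1, Cox6b1, Ndufs3 and Sdhd), against 2115 of 27025 genes (7.83%). A match is a description of the letters, not a site. The 5 windows with the NRF-1 letters are shown because they hold genes of complexes I, II and IV together, with the motif in capitals, each read 5′ to 3′ along its gene (RefSeq, build GRCm38.p6, minus strand).
Cox6a1, chr5:115349086-115349145: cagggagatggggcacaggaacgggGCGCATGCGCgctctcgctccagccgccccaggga
Ndufa5, chr6:24527682-24527741: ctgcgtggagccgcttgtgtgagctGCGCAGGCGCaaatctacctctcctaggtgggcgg
Ndufa8, chr2:36049339-36049393: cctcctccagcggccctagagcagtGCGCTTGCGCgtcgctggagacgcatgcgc
Sdha, chr13:74350304-74350363: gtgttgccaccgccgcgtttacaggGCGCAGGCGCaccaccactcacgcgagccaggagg
Sdhd, chr9:50603894-50603953: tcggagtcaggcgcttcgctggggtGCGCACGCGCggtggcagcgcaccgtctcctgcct
In Ndufa8 the letters match on the opposite strand, 30 bases before the gene start. In the others the motif began 162 (Cox6a1), 190 (Ndufa5, which has another listed start 26 bases after the same motif began), 98 (Sdha) and 79 (Sdhd) bases before it.

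As a share of the library, the 13 mitochondrially encoded genes took 10.1%, 9.21% and 8.78% of counts in LPC_Ipsil, 15.9%, 9.66% and 10.4% in LNIO_Ipsil, 9.78%, 9.44% and 10.6% in LPC_Contra, 13.7%, 8.74% and 11.2% in LNIO_Contra, and 10.1%, 10.4% and 10.3% in Sham_Ipsil. The high shares were those of replicate 1 of both L-NIO groups, and all other libraries lay between 8.74% and 11.2%. The 40 nuclear encoded genes took 0.315%, 0.315% and 0.313% in LPC_Ipsil, 0.366%, 0.348% and 0.342% in LNIO_Ipsil, 0.328%, 0.504% and 0.322% in LPC_Contra, 0.389%, 0.349% and 0.414% in LNIO_Contra, and 0.346%, 0.360% and 0.347% in Sham_Ipsil. The LPC_Ipsil libraries had the 3 lowest nuclear shares of the 15, just under LPC_Contra replicates 3 and 1. The high value of LPC_Contra replicate 2 came with a different make-up of its mitochondrial counts: ND5 took 2.75% of them, against 3.97% to 4.78% in the other libraries, and ND4L 0.594%, against a median of 1.44% over all 15.

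**Figure D2:**
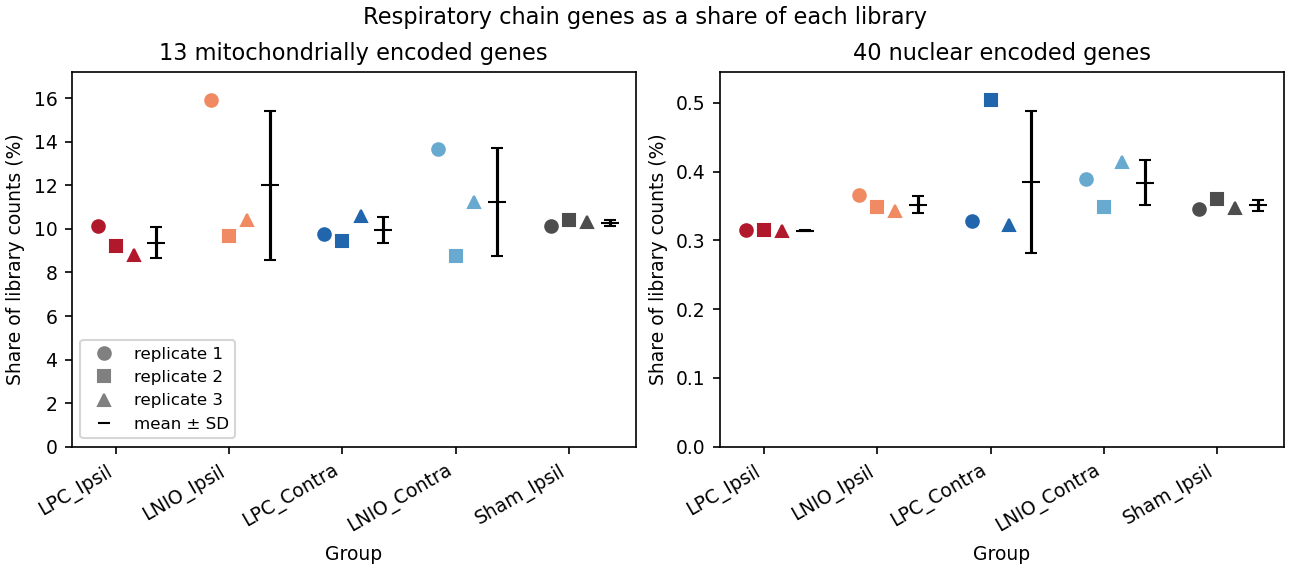
Share of each library's counts, in percent, that fell in the 13 mitochondrially encoded genes (left) and the 40 nuclear encoded genes (right), by group, with symbols for replicates and mean ± SD beside them. LNIO_Ipsil replicate 1 (15.9%) and LNIO_Contra replicate 1 (13.7%) stand out on the left, LPC_Contra replicate 2 (0.504%) on the right, and the 3 LPC_Ipsil libraries lie lowest on the right.

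The LPC lesion against the saline site asks what demyelinating injury does to these messages. No member passed the test (edgeR quasi-likelihood, Benjamini-Hochberg adjusted p under 0.05 over all tested genes), where 871 of all tested genes (5.19%) did, and DESeq2 called 2 members, Ndufs1 and Cycs, both lower, while limma on FPKM called none. The 871 became 0 or 1 without any 1 Sham_Ipsil library or without LPC_Ipsil replicate 1 or 2, and 1646 without LPC_Ipsil replicate 3, and none of these fits called a member. Most members were nevertheless a little lower in the LPC lesion: 34 of the 40 nuclear and 12 of the 13 mitochondrial genes had a negative log2 fold change, as had 48.6% of all tested genes. The median log2 fold change was -0.16 for the nuclear and -0.12 for the mitochondrial genes, against 0.01 over all tested genes, and a single gene's SE was typically as large (median 0.17 and 0.21). Both medians kept their sign in every alternative run, from -0.21 to -0.11 for the nuclear and from -0.22 to -0.07 for the mitochondrial genes.

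Of the 53 members, 23 (43.4%) had every LPC_Ipsil library below every Sham_Ipsil library, where 13.5% of all tested genes did, and 0 had them all above, where 14% did. Members share these libraries and rise or fall together in some of them, so the 23 are not separate observations. This holds for every such count below. Unadjusted p under 0.05 was reached by 4 members, all nuclear and all lower (7.55%), near the 7.43% of all tested genes that were lower by that measure. This count was 9 when LPC_Contra replicate 2, which enters the fit only through the shared spread, scaling and gene filter, was left out. The share of all tested genes in that fit is not given.

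Among complex I genes, 8 of the 19 nuclear members lay wholly below the saline site. Ndufs1 had 82.5, 88.2 and 91.7 CPM in LPC_Ipsil, against 123, 109 and 106 CPM in Sham_Ipsil. The groups did not overlap, and the log2 fold change was -0.37 ± 0.11 (SE, as for all values after ± beside a log2 fold change), with unadjusted p = 0.00472 and edgeR adjusted p = 0.0690. Ndufv2, part of the NADH-oxidising tip of complex I, averaged 75.0 ± 2.92 CPM in LPC_Ipsil and 94.1 ± 7.37 CPM in Sham_Ipsil. Ndufa5, an accessory subunit of the arm that protrudes into the matrix, averaged 23.8 ± 0.939 CPM in LPC_Ipsil and 31.3 ± 1.01 CPM in Sham_Ipsil. Their log2 fold changes were -0.33 ± 0.16 and -0.40 ± 0.21.

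The mitochondrially encoded complex I genes ND1, ND4, ND4L and ND5 were the 4 of 13 mitochondrial genes whose groups did not overlap. ND1 had 8664, 7259 and 7441 CPM in LPC_Ipsil, against 8878, 9621 and 9243 CPM in Sham_Ipsil. Its highest lesion library lay just under the lowest sham library, and the log2 fold change of -0.25 ± 0.21 was about the size of its error. Across the 13 mitochondrial genes the log2 fold change ran from -0.26 ± 0.30 for ND4L to 0.03 ± 0.25 for ATP8, with ND2 at -0.21 ± 0.21, ND5 at -0.18 ± 0.26, COX1 at -0.12 ± 0.23, ATP6 at -0.12 ± 0.20, CYTB at -0.08 ± 0.21 and ND6 at -0.07 ± 0.24.

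Among the nuclear genes, complexes II and III had medians of -0.10 and -0.09, against -0.16 in complex I and -0.20 in complex IV. Sdha had 270, 266 and 276 CPM in LPC_Ipsil, against 273, 288 and 276 CPM in Sham_Ipsil. The groups overlapped, and with a log2 fold change of -0.04 ± 0.11 Sdha was also the member with the least spread over the 15 libraries. In complex II, only Sdhd, a membrane anchor, lay wholly below the saline site, at 53.3, 53.8 and 48.8 CPM in LPC_Ipsil, against 56.2, 57.8 and 59.4 CPM in Sham_Ipsil. In complex III this was so for Uqcrc2, a core subunit, and Uqcrb, a small subunit near the ubiquinone site. Uqcrc2 had 95.7, 104 and 111 CPM in LPC_Ipsil, against 152, 133 and 121 CPM in Sham_Ipsil (log2 fold change -0.39 ± 0.15, edgeR adjusted p = 0.158). Its partner core subunit Uqcrc1 overlapped between groups, at -0.05 ± 0.14.

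Cytochrome c and complex IV had the largest share of genes wholly below the saline site. Cycs, which carries electrons between complexes III and IV and also starts apoptosis once released, had 127, 124 and 126 CPM in LPC_Ipsil, against 176, 173 and 160 CPM in Sham_Ipsil. The lesion libraries were close to each other and far from every sham library, with a log2 fold change of -0.44 ± 0.15 and edgeR adjusted p = 0.103. In complex IV, 7 of the 10 nuclear members lay wholly below the saline site. Cox5a, which binds the matrix side of the complex, had 30.5, 29.7 and 29.0 CPM in LPC_Ipsil, against 35.5, 41.4 and 39.9 CPM in Sham_Ipsil (-0.39 ± 0.14, edgeR adjusted p = 0.128). Ndufa4, once counted in complex I and now placed in complex IV, had 94.0, 84.6 and 89.9 CPM in LPC_Ipsil, against 104, 109 and 110 CPM in Sham_Ipsil (-0.27 ± 0.19).

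Complex IV was not uniform. Cox8a was at -0.20 ± 0.17 without overlap, but Cox4i1, the regulatory subunit that is assembled early, averaged 131 ± 10.5 CPM in LPC_Ipsil and 122 ± 13.03 CPM in Sham_Ipsil, with overlapping groups and a log2 fold change of 0.10 ± 0.17. Cox7b had the largest change, -0.70 ± 0.45, and also the largest spread of any member. It stood at 76.5, 71.7 and 72.0 CPM in LPC_Ipsil, against 181, 87.0 and 89.7 CPM in Sham_Ipsil. Its high sham value was replicate 1, and replicate 1 was also high in both L-NIO groups, at 222 CPM in LNIO_Ipsil and 233 CPM in LNIO_Contra. In LPC_Contra, by contrast, replicates 2 and 3 were the high ones, at 99.2 and 118 FPKM, against 59.2 FPKM in replicate 1. The coefficient of variation of Cox7b over all libraries was 46.5%.

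Marker levels of several cell types differed beside these values. Neuronal markers summed to 8754 to 11959 CPM in LPC_Ipsil and 13604 to 15082 CPM in Sham_Ipsil. All 12 had a negative log2 fold change, with a median log2 fold change of -0.48, and 1, the axonal neurofilament gene Nefl, was called. Microglia and macrophage markers summed to 633 to 5328 CPM in LPC_Ipsil and 425 to 575 CPM in Sham_Ipsil, and 12 of 12 were called higher. Astrocyte markers summed to 6270 to 8305 CPM in LPC_Ipsil and 5121 to 5627 CPM in Sham_Ipsil (2 of 8 called higher), those of oligodendrocyte precursors to 796 to 940 CPM and 560 to 739 CPM (3 of 6), and those of endothelium to 179 to 220 CPM and 132 to 143 CPM (1 of 6). No gene of these 5 lists was at 0 in every library, and the part of any of them in the lower respiratory chain values was not tested. Markers of mature oligodendrocytes overlapped, at 20847 to 32203 CPM in LPC_Ipsil, highest in replicate 3, and 16396 to 26219 CPM in Sham_Ipsil. Their part was not tested either. In LPC_Ipsil replicate 3, with the fewest microglial counts of its group, 0 of the 40 nuclear members were above the mean of the other libraries. Without that library the nuclear median was -0.11 and the count at unadjusted p under 0.05 was again 4, with no share of all tested genes given.

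**Figure D3:**
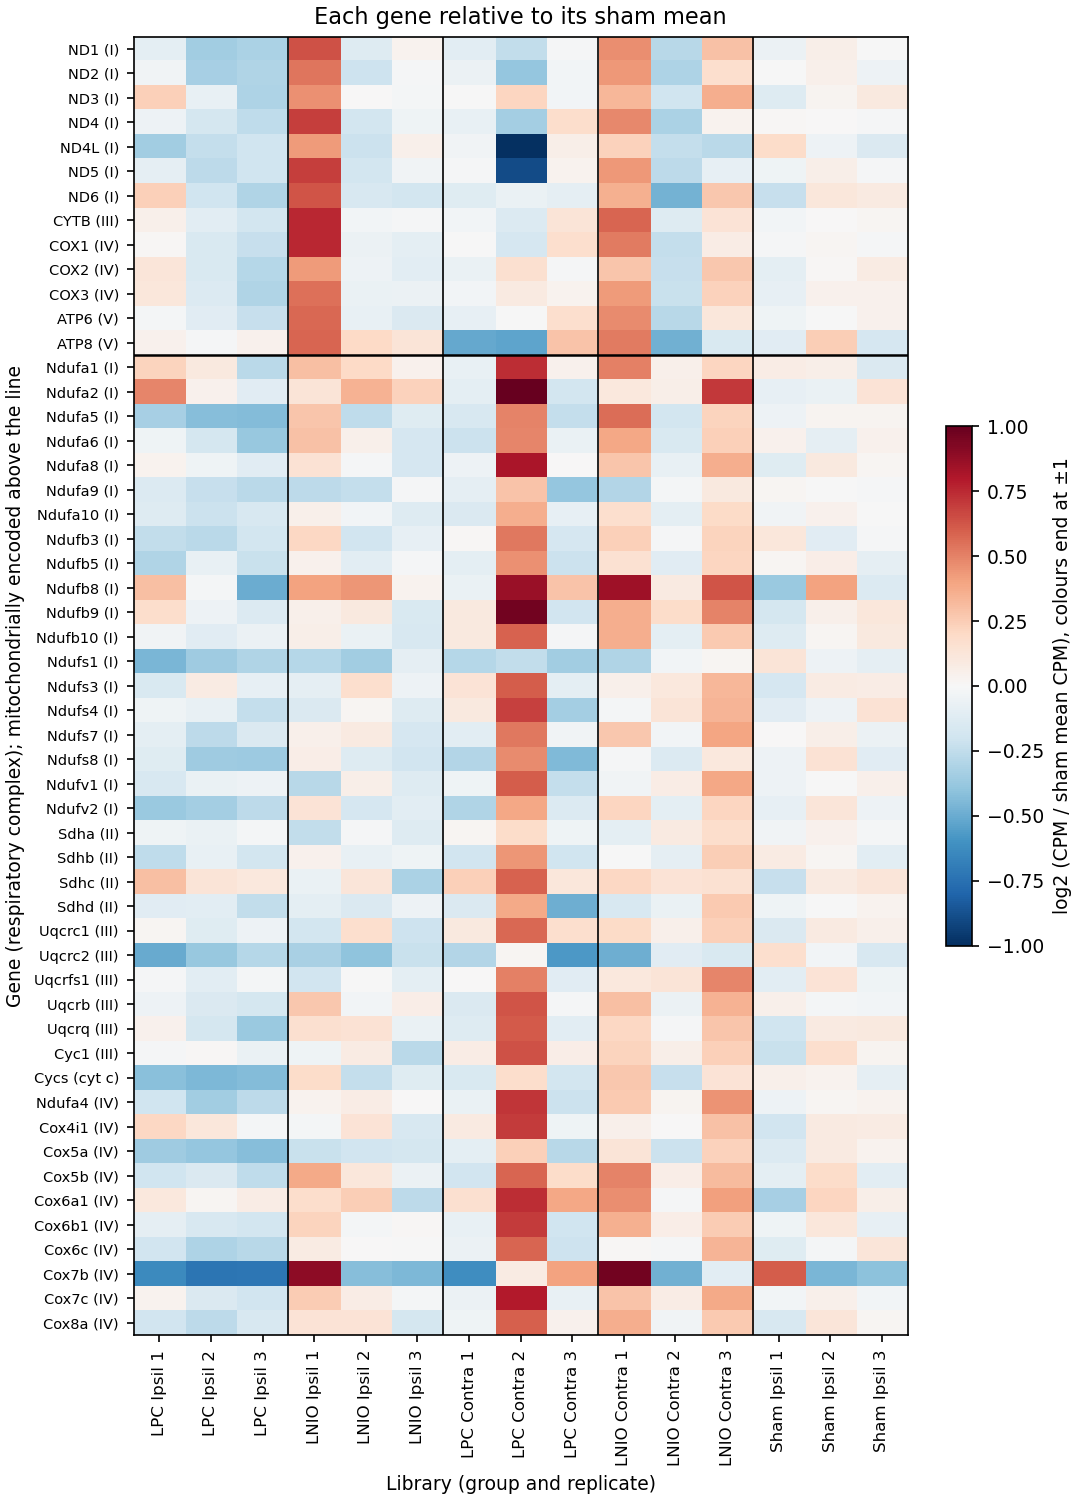
Log2 ratio of each gene's CPM in each of the 15 libraries to its Sham_Ipsil mean, with mitochondrially encoded genes above the line and the complex in brackets. Colours end at a ratio of 1 in either direction. Most nuclear rows are pale blue in LPC_Ipsil, whereas single columns are red for 1 genome each: LNIO_Ipsil and LNIO_Contra replicate 1 for the mitochondrial genes and LPC_Contra replicate 2 for the nuclear genes.

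In the LPC lesion against the saline site, a few genes of related lists were called, where 5.19% of all tested genes were. Of 18 tricarboxylic acid cycle genes, the enzymes that feed the chain with NADH and succinate, 2 fell and 1 rose by edgeR, beside 0.994% of all tested genes called lower and 4.19% called higher. Idh3a, the catalytic subunit of NAD-dependent isocitrate dehydrogenase, fell to 115, 116 and 131 CPM in LPC_Ipsil, against 160, 170 and 165 CPM in Sham_Ipsil (-0.45 ± 0.09, edgeR adjusted p = 0.0243). The subunits that decide which nucleotide succinyl-CoA synthetase makes moved apart. Sucla2, of its ATP-forming enzyme, fell to 81.3, 89.2 and 96.0 CPM in LPC_Ipsil, against 134, 127 and 117 CPM in Sham_Ipsil (-0.50 ± 0.12, edgeR adjusted p = 0.0279). Suclg2, of its GTP-forming enzyme, rose to 37.9, 37.3 and 20.1 CPM in LPC_Ipsil, against 15.1, 17.2 and 13.7 CPM in Sham_Ipsil (1.06 ± 0.21, edgeR adjusted p = 0.0243).

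None of these 3 genes overlapped between the groups. The rise of Suclg2 was smaller in LPC_Ipsil replicate 3, the library with few microglial counts. Suclg2 was alike in LPC_Ipsil replicates 1 and 2, whose microglia and macrophage markers summed to 5328 and 3228 CPM. Any link was not tested. Over the whole list, 12 of the 18 genes lay wholly below the saline site, against 13.5% of all tested genes, and the median log2 fold change was -0.20.

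Among 18 complex I subunits outside the members, 1 fell: Ndufb2, an accessory membrane subunit, at 12, 12.8 and 11.5 CPM in LPC_Ipsil, against 16.1, 16.4 and 17.6 CPM in Sham_Ipsil (-0.46 ± 0.12, edgeR adjusted p = 0.0459). Of 41 tested assembly factors, 1 fell: Ttc19, which clears fragments of the iron-sulfur protein from complex III, at 70.9, 80.6 and 87.7 CPM in LPC_Ipsil, against 102, 99.7 and 111 CPM in Sham_Ipsil (-0.39 ± 0.10, edgeR adjusted p = 0.0470). Of all tested genes 0.994% were called lower, and 1 gene of 18 or of 41 is too few to set against that share. The 5 calls of related genes were lost when any 1 Sham_Ipsil library, or LPC_Ipsil replicate 1 or 2, was left out (edgeR adjusted p = 0.0639 to 0.283), when the fit was limited to the groups compared, and with limma. They all held with DESeq2. Without LPC_Ipsil replicate 3, Ndufb2 was lost (edgeR adjusted p = 0.0862) and the other 4 held. Ndufb2 and Ttc19 were also lost with the replicate block (0.0684 and 0.0680 as edgeR adjusted p), with the filter of at least 1 count (0.0732 and 0.0753) and without some libraries of other groups, Ttc19 with library totals only (0.0526), and Sucla2 without LNIO_Ipsil replicate 1 and LNIO_Contra replicate 1 together (0.0505).

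In the remaining lists no gene was called by edgeR. Of 5 further subunits of complexes III and IV, Uqcrh was at -0.17 ± 0.17 and Cox7a2 at -0.19 ± 0.22. Of 18 nuclear ATP synthase subunits, 14 were below 0, with Atp5f1c, the rotating shaft, at -0.29 ± 0.11 and Atp5pb, of the peripheral stalk, at -0.24 ± 0.12. Tissue or stress specific isoforms were tested for 5 of 10, with Cox6b2 at 0.60 ± 0.27 and Cox6a2 at 0.80 ± 0.50. Among 30 genes of mitochondrial DNA and RNA handling, Mgme1, a nuclease of mitochondrial DNA, stood at 0.73 ± 0.24 and Mterf2, a mitochondrial termination factor, at -0.39 ± 0.17. Of 14 regulators, Ppargc1a, the coactivator known for driving mitochondrial gene programmes, averaged 36.2 ± 3.41 CPM in LPC_Ipsil and 51.3 ± 1.42 CPM in Sham_Ipsil (-0.51 ± 0.16, edgeR adjusted p = 0.0876), and Sirt3, a mitochondrial deacetylase, was at -0.23 ± 0.09. Among 19 genes of membrane transport, import and dynamics, Timm23, the inner membrane import pore, was at -0.30 ± 0.12 and Vdac1, the outer membrane channel, at -0.25 ± 0.12.

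**Figure D4:**
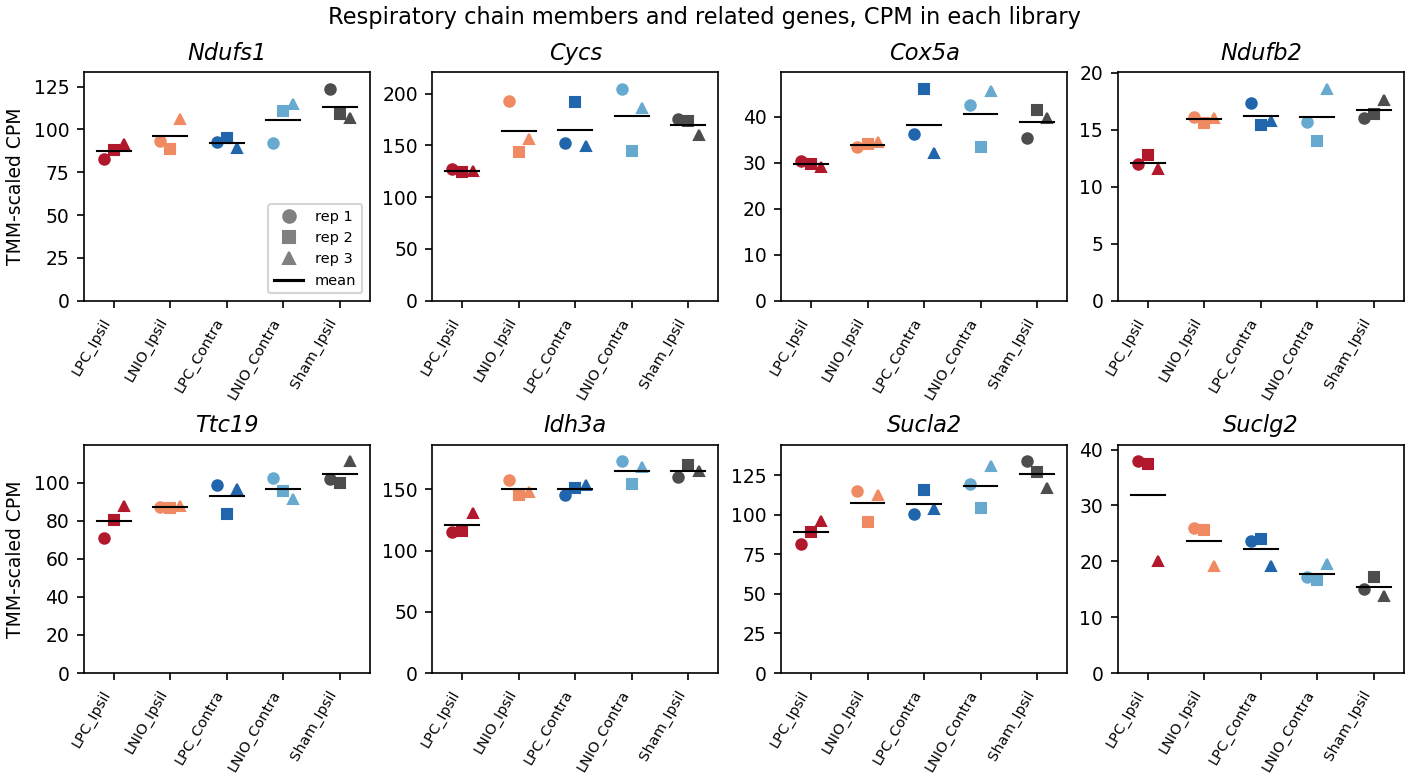
CPM of 8 genes in each library, by group, with a line at each group's mean: the members Ndufs1, Cycs and Cox5a, and the related genes Ndufb2, Ttc19, Idh3a, Sucla2 and Suclg2 that passed the test in LPC_Ipsil against Sham_Ipsil. LPC_Ipsil points lie below every Sham_Ipsil point for 7 genes and above them for Suclg2.

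The L-NIO lesion against the saline site asks the same of ischaemic injury. No member passed by edgeR, where 0 of all tested genes (0%) did (or 398, without LPC_Ipsil replicate 3), and none reached unadjusted p under 0.05, where 8.87% of all tested genes did. DESeq2 and limma called 0 members as well. Leaving out Sham_Ipsil replicate 3 put 2 nuclear members under 0.05, and leaving out LNIO_Ipsil replicate 3, LPC_Contra replicate 2 or LNIO_Contra replicate 3 put 1. For those fits no share of all tested genes is given. The mitochondrial genes were all above 0, with a median log2 fold change of 0.17, while the nuclear genes were centred on -0.01 with 24 of 40 below 0, where 53.2% of all tested genes were. The mitochondrial direction rested on 1 library. COX1 had 44143, 25137 and 24388 CPM in LNIO_Ipsil, against 25869, 26516 and 25962 CPM in Sham_Ipsil. Replicate 1 was far above every sham library, and the other replicates were below them all (log2 fold change 0.26 ± 0.23). Without replicate 1, the median of the mitochondrial genes was -0.07 and 2 of the 13 were above 0.

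The other mitochondrial genes named were likewise highest in replicate 1. CYTB was at 0.29 ± 0.21, ATP8 at 0.32 ± 0.25, ND1 at 0.22 ± 0.21, ND4 at 0.21 ± 0.23, ATP6 at 0.16 ± 0.20 and ND6 at 0.15 ± 0.24. Among the nuclear genes, Ndufs1, Uqcrc2, Cox5a and Sdhd lay wholly below the saline site (7.55% of the members, against 7.86% of all tested genes). Ndufs1 had 93.0, 88.9 and 106 CPM in LNIO_Ipsil, its highest library just under the lowest of Sham_Ipsil (123, 109 and 106 CPM), with -0.24 ± 0.11 and edgeR adjusted p = 0.562. Uqcrc2 was at -0.31 ± 0.15 and Cox5a at -0.20 ± 0.14. Cycs (-0.05 ± 0.15), Ndufa4 (0.04 ± 0.19), Cox8a (0.04 ± 0.17), Cox4i1 (-0.01 ± 0.17), Uqcrc1 (-0.06 ± 0.14) and Sdha (-0.13 ± 0.11) all overlapped. Microglia and macrophage markers summed to 1245 to 2007 CPM in LNIO_Ipsil and 425 to 575 CPM in Sham_Ipsil, neuronal markers to 13010 to 13794 CPM in LNIO_Ipsil and 13604 to 15082 CPM in Sham_Ipsil, and astrocyte markers to 5704 to 7379 CPM in LNIO_Ipsil and 5121 to 5627 CPM in Sham_Ipsil. Their part was not tested.

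The lesions were also set against each other. In LNIO_Ipsil against LPC_Ipsil, no member passed by edgeR, where 0 of all tested genes (0%) did (or 241, without LPC_Ipsil replicate 3), nor by DESeq2 or limma. Unadjusted p under 0.05 was reached by 2 members, both higher in LNIO_Ipsil, where 2.95% of all tested genes were higher by that measure. Cycs had 193, 144 and 156 CPM in LNIO_Ipsil, against 127, 124 and 126 CPM in LPC_Ipsil, without overlap (0.39 ± 0.15, edgeR adjusted p = 0.559). ND1 had 14343, 8465 and 9501 CPM in LNIO_Ipsil, against 8664, 7259 and 7441 CPM in LPC_Ipsil, with overlap (0.47 ± 0.21, edgeR adjusted p = 0.591). Both were high in LNIO_Ipsil replicate 1, and without that library neither genome had a member at unadjusted p under 0.05. The counts were 4 mitochondrial and 4 nuclear genes without LNIO_Ipsil replicate 2, 3 and 3 without LNIO_Ipsil replicate 3, 1 and 3 without LNIO_Contra replicate 1, and 2 and 7 without LPC_Contra replicate 2. The contralateral libraries enter this comparison only through the shared spread, scaling and gene filter. Without LPC_Ipsil replicate 2 or 3 no mitochondrial gene reached unadjusted p under 0.05, and without Sham_Ipsil replicate 2 or LPC_Contra replicate 1 the nuclear count was 2. How many of all tested genes reached it in each of these fits is not given.

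Wholly above the LPC lesion lay 11 members (20.8%, against 6.07% of all tested genes), and none lay wholly below it. They were ATP8 and 10 nuclear genes, 6 of them among the 10 nuclear members of complex IV. Ndufa4 had 110, 113 and 108 CPM in LNIO_Ipsil, against 94.0, 84.6 and 89.9 CPM in LPC_Ipsil (0.31 ± 0.19, edgeR adjusted p = 0.647). The median log2 fold change was 0.36 for the mitochondrial genes, or 0.08 without LNIO_Ipsil replicate 1, and 0.15 for the nuclear genes, or 0.14 without it, against -0.04 over all tested genes. Below 0 were 7 of the 53 members, where 56.4% of all tested genes were. Cox8a (0.24 ± 0.17), Ndufs1 (0.13 ± 0.11), Cox4i1 (-0.11 ± 0.17), Sdha (-0.08 ± 0.11) and Uqcrc1 (-0.02 ± 0.14) overlapped between the lesions. Cox7b was at 0.85 ± 0.45, Ndufa5 at 0.38 ± 0.21 and Cox5b, which binds zinc on the matrix side of complex IV, at 0.35 ± 0.18, all without overlap. Of the mitochondrial genes, COX1 was at 0.38 ± 0.23, CYTB at 0.36 ± 0.21, ND2 at 0.36 ± 0.21, ATP8 at 0.29 ± 0.25, ATP6 at 0.27 ± 0.20 and ND6 at 0.21 ± 0.24.

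Contralateral tissue against the saline site asks whether the other side is altered. In LPC_Contra, no member passed by edgeR, where 1 of all tested genes (0.00595%) did, nor by DESeq2 or limma. Unadjusted p under 0.05 was reached by 3 nuclear members. Ndufs1 was lower, as 5.43% of all tested genes were by that measure, and Cox6a1 and Sdhc, a membrane anchor of complex II, were higher, as 4.24% were. Wholly above the saline site was 1 member, Uqcrc1, where 7.06% of all tested genes were, and wholly below it 1, Ndufs1, where 8.07% were. Ndufs1 had 92.9, 95.1 and 89.0 CPM in LPC_Contra, against 123, 109 and 106 CPM in Sham_Ipsil, without overlap (-0.29 ± 0.11, edgeR adjusted p = 0.496). Cox6a1 had 165, 246 and 194 CPM in LPC_Contra, against 118, 172 and 154 CPM in Sham_Ipsil, with overlap (0.45 ± 0.19). Sdhc was at 0.33 ± 0.14 with overlap, and Uqcrc1 at 0.30 ± 0.14 without it. Cox4i1 (0.29 ± 0.17), Cox8a (0.23 ± 0.17), Ndufa4 (0.20 ± 0.19), Sdha (0.06 ± 0.11) and Cycs (-0.04 ± 0.15) overlapped.

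The median log2 fold change of the nuclear genes in LPC_Contra was 0.17, and it turned to -0.09 without LPC_Contra replicate 2, with 10 instead of 33 of the 40 genes above 0. Of all tested genes 46.5% were below 0. Relative to the other libraries the excess in replicate 2 was alike in complexes I to IV, with a median log2 deviation of 0.57, 0.48, 0.57 and 0.62. Across the 40 nuclear genes, which share the library and its depth, the deviation of replicate 2 had a rank correlation of -0.50 with implied gene length, against -0.24 to 0.29 in the other libraries. Leaving out LPC_Contra replicate 1 or 3 raised the count at unadjusted p under 0.05 to 9 or 11, and leaving out Sham_Ipsil replicate 1 took it to 0. The share of all tested genes in those fits is not given. The mitochondrial median was -0.06, with ND4L at -0.34 ± 0.30 and ND5 at -0.23 ± 0.26, both of which turned to 0.02 without replicate 2. COX1 (0.00 ± 0.23), CYTB (-0.01 ± 0.21) and ATP6 (0.03 ± 0.20) lay near 0, with ATP8 at -0.20 ± 0.25, ND2 at -0.15 ± 0.21, ND1 at -0.12 ± 0.21 and ND6 at -0.09 ± 0.24. Beside these values, marker sums in LPC_Contra lay wholly apart from Sham_Ipsil for neurons (10244 to 13063 CPM in LPC_Contra, 13604 to 15082 CPM in Sham_Ipsil), endothelium (185 to 289 and 132 to 143 CPM) and oligodendrocyte precursors (764 to 818 and 560 to 739 CPM), and their part was not tested.

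In LNIO_Contra against Sham_Ipsil no member passed by edgeR, where 0 of all tested genes (0%) did, or by DESeq2 or limma, and none reached unadjusted p under 0.05, where 2.72% of all tested genes did. Wholly above the saline site were 3 members (5.66%, against 5.01% of all tested genes): Ndufb9 and Sdhc, and Cox7c, a small complex IV subunit. Cox7c had 108, 93.4 and 115 CPM in LNIO_Contra, against 86.9, 92.0 and 86.8 CPM in Sham_Ipsil (0.25 ± 0.19). The nuclear median was 0.17, with 4 of 40 genes below 0 where 49.2% of all tested genes were. It was 0.11 without LNIO_Contra replicate 3. The mitochondrial median was 0.13, or -0.05 without LNIO_Contra replicate 1. Without LPC_Contra replicate 2 in the shared fit, 5 nuclear members reached unadjusted p under 0.05, as did 2 without LNIO_Contra replicate 2 and 1 without Sham_Ipsil replicate 2. No share of all tested genes is given beside these counts. Smallest in p among the nuclear genes were Ndufb8 (0.56 ± 0.30), Cox5b (0.30 ± 0.18), Uqcrfs1 (0.25 ± 0.15) and Cox6a1 (0.31 ± 0.19), all overlapping with the saline site. Ndufa4 (0.26 ± 0.19), Cox8a (0.20 ± 0.17), Uqcrc1 (0.16 ± 0.14), Cox4i1 (0.12 ± 0.17), Cycs (0.07 ± 0.15), Sdha (0.06 ± 0.11) and Ndufs1 (-0.10 ± 0.11) overlapped too. So did CYTB (0.22 ± 0.21), ND1 (0.19 ± 0.21), ND3 (0.19 ± 0.18), COX3 (0.17 ± 0.19), COX1 (0.15 ± 0.23), ATP6 (0.13 ± 0.20), ND6 (0.09 ± 0.24) and ATP8 (0.02 ± 0.25). Marker sums of neurons in LNIO_Contra (12550 to 14390 CPM) overlapped with those in Sham_Ipsil. All 4 comparisons above with Sham_Ipsil share its 3 libraries.

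The side comparisons set each lesion against the opposite hemisphere. In LPC_Ipsil against LPC_Contra, no member passed by edgeR, where 0 of all tested genes (0%) did (or 950, without LPC_Ipsil replicate 3), nor by DESeq2 or limma, although the log2 fold change was below 0 for 40 of the 40 nuclear genes, as for 49% of all tested genes, with a median of -0.32. Unadjusted p under 0.05 was reached by 9 nuclear members, all lower, where 3.59% of all tested genes were lower by that measure, and 5 of the 9 belonged to complex IV. Wholly below the other side were 10 nuclear members, where 6.59% of all tested genes were. Cox8a had 167, 159 and 171 CPM in LPC_Ipsil, against 185, 289 and 196 CPM in LPC_Contra (-0.43 ± 0.17, edgeR adjusted p = 0.272). Cycs had 127, 124 and 126 CPM in LPC_Ipsil, against 153, 192 and 149 CPM in LPC_Contra (-0.39 ± 0.15, edgeR adjusted p = 0.249). Neither gene overlapped between the sides, and in both the highest contralateral library was replicate 2.

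Without LPC_Contra replicate 2 the nuclear median was -0.05, 12 of the 40 genes were above 0 and none reached unadjusted p under 0.05. The median and these counts thus rested on that library. Members wholly below the other side stay so when a library is left out. The count at unadjusted p under 0.05 was 21 without LPC_Contra replicate 1, 27 without LPC_Contra replicate 3, 3 without LPC_Ipsil replicate 2, 5 without LPC_Ipsil replicate 3, and 14 without Sham_Ipsil replicate 2 or 3 or LNIO_Contra replicate 3. For these fits the share of all tested genes is not given, so the counts cannot be set against other genes. Cox5a (-0.36 ± 0.14), Ndufa4 (-0.47 ± 0.19) and Uqcrc1 (-0.34 ± 0.14) were among the 9. Sdha (-0.10 ± 0.11), Ndufs1 (-0.08 ± 0.11) and Cox4i1 (-0.18 ± 0.17) were not. The mitochondrial median was -0.09, with ATP8 at 0.23 ± 0.25, ND6 at 0.02 ± 0.24, CYTB at -0.07 ± 0.21, COX1 at -0.12 ± 0.23, ND1 at -0.13 ± 0.21, COX2 at -0.13 ± 0.18, COX3 at -0.13 ± 0.19 and ATP6 at -0.15 ± 0.20.

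In LNIO_Ipsil against LNIO_Contra, where replicate numbers may pair the libraries, no member passed by edgeR, where 0 of all tested genes (0%) did (or 380, without LPC_Ipsil replicate 3), nor by DESeq2 or limma. With the replicate as a block and only these 6 libraries in the fit, 683 of all tested genes were called and still 0 members, with 5 nuclear and 1 mitochondrial members at unadjusted p under 0.05. The share of all tested genes at unadjusted p under 0.05 in that fit is not given. The nuclear genes were below 0 in 40 of 40 cases, where 53.9% of all tested genes were, with a median of -0.15, or -0.14 with the block, and this median stayed between -0.25 and -0.11 in every alternative. Unadjusted p under 0.05 was reached by 1 member, where 1.25% of all tested genes were lower by that measure. This was Uqcrfs1, the Rieske iron-sulfur protein of complex III, at 58.7, 66.9 and 62.9 CPM in LNIO_Ipsil, against 72.2, 73.5 and 94.1 CPM in LNIO_Contra, without overlap (-0.35 ± 0.15, edgeR adjusted p = 0.774). The count was 0 without LNIO_Ipsil replicate 1 or 3 or LNIO_Contra replicate 3, 2 without LNIO_Ipsil replicate 2 or LPC_Contra replicate 2, and 3 without LNIO_Contra replicate 2. These counts, too, stand without the share of all tested genes.

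Sdhc (-0.24 ± 0.14) and Ndufb9 also lay wholly below the other side, which makes 3 of 53 members, beside 5.24% of all tested genes. Each of the other nuclear members named overlapped between the sides: Cox5a at -0.26 ± 0.14, Uqcrc1 at -0.23 ± 0.14, Ndufa4 at -0.22 ± 0.19, Sdha at -0.18 ± 0.11, Cox8a at -0.16 ± 0.17, Cox4i1 at -0.13 ± 0.17, Ndufs1 at -0.14 ± 0.11 and Cycs at -0.12 ± 0.15. The mitochondrial median was 0.05 and turned to -0.23 without LNIO_Ipsil replicate 1, or to 0.24 without LNIO_Contra replicate 1. ATP8 was at 0.29 ± 0.25, ND4L at 0.18 ± 0.30, ND5 at 0.15 ± 0.26, ND4 at 0.11 ± 0.23, COX1 at 0.10 ± 0.23, CYTB at 0.06 ± 0.21, ND6 at 0.05 ± 0.24, ND1 at 0.03 ± 0.21 and ATP6 at 0.02 ± 0.20.

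**Figure D5:**
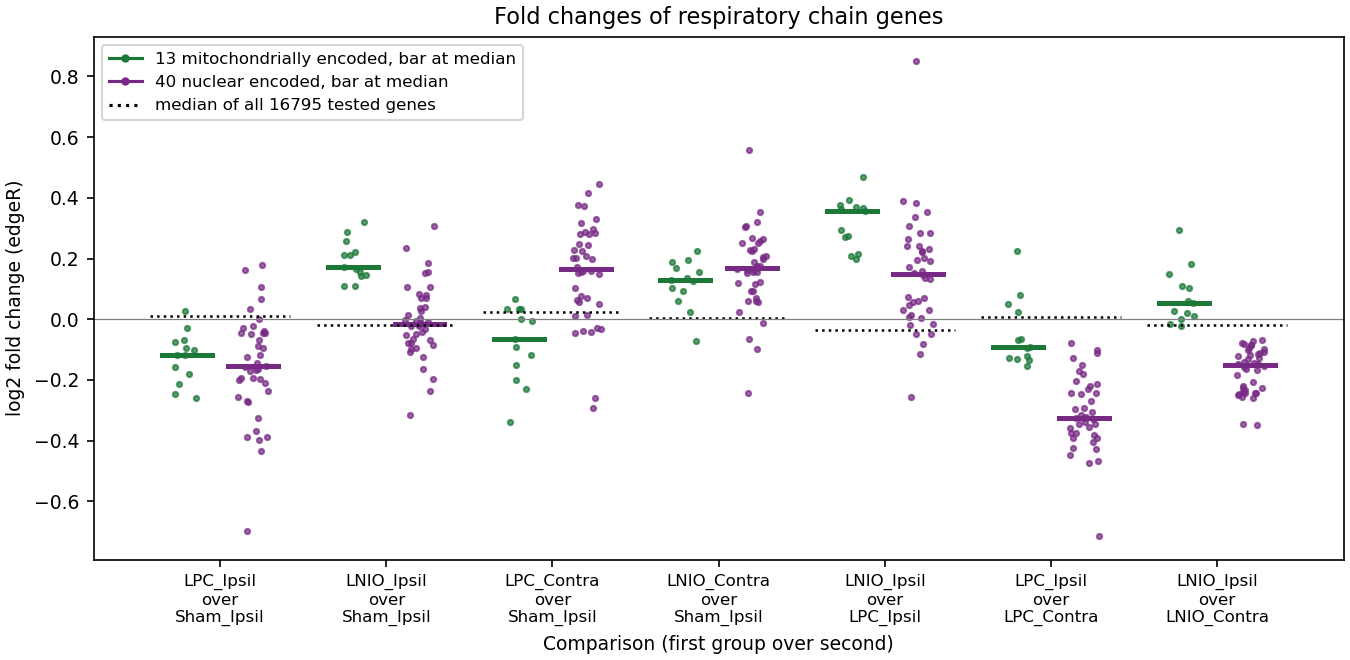
Log2 fold change of every member in the 7 comparisons (first group over second), with points for genes, bars at the median of the 13 mitochondrially and 40 nuclear encoded genes, and a dotted line at the median of all 16795 tested genes. The nuclear genes lie lowest in LPC_Ipsil over LPC_Contra (median -0.32) and the mitochondrial genes highest in LNIO_Ipsil over LPC_Ipsil (median 0.36), and each of these medians rests on 1 library.

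Over the 5 groups, the balance of mitochondrial and nuclear messages was set side by side. The log2 ratio of the mitochondrial to the nuclear share was 5.01, 4.87 and 4.81 in LPC_Ipsil, 5.44, 4.80 and 4.93 in LNIO_Ipsil, 4.90, 4.23 and 5.04 in LPC_Contra, 5.14, 4.65 and 4.76 in LNIO_Contra, and 4.87, 4.85 and 4.90 in Sham_Ipsil. The highest value was that of LNIO_Ipsil replicate 1 and the lowest that of LPC_Contra replicate 2, the libraries that stood apart in one genome each. Each of the 4 day-4 groups had libraries both above and below the range of Sham_Ipsil.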

How the data were processed

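RNA was depleted of ribosomal RNA, selected by poly(A) tail and sequenced as read pairs, per the labels' protocols. Selection by tail can change how mitochondrial messages, whose tails are short, are sampled against nuclear ones. The authors deposited 1 table of raw counts per gene and 1 of FPKM values per gene, and alignment to GRCm39 with HISAT2 2.2.1 and R 4.4.2 are listed per the submitters' processing notes. Neither the counter nor its use of strand is named in the labels. FPKM values deposited by the authors were used for levels between genes and for the limma alternatives only, and their implied totals exceeded those of the count table by 1.06 to 1.08 times.

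Counts were tested with edgeR 4.0.16 (R 4.3.3): TMM factors (0.966 to 1.06), genes kept by group with a minimum count of 10 and a total of 15, a robust quasi-likelihood fit over all 15 libraries with 1 mean per group, and Benjamini-Hochberg adjustment over all 16795 genes. A threshold of 0.05 was used throughout. Errors are SD over libraries for levels and SE for log2 fold changes. Replicates differed by more than sampling noise in every group (chi-square per degree of freedom 10.1 to 63.7), and none was a repeat of another. For 74 repeated symbols each row was kept apart.

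The members and lists were chosen with earlier results of these data known. Not all of the 53 genes are named in the text. Each comparison names ND1, ND6, CYTB, COX1, ATP6, ATP8, Ndufs1, Ndufa4, Sdha, Uqcrc1, Cycs, Cox4i1 and Cox8a, then the 4 of each genome with the smallest p where fewer were called. From each related list up to 4 called genes are named, else up to 2 by smallest p. ND4, Ndufv2, Ndufa5, Sdhd, Cox7b, Cox7c and Ndufb9 were in places chosen after their values were seen. Deviations from group means were compared between libraries with the same replicate number. Between the sides of the L-NIO mice they correlated at 0.62, 0.37 and 0.24, where different numbers gave -0.50 to 0.20. Between the sides of the LPC mice they correlated at -0.056, 0.16 and 0.34, where different numbers gave -0.29 to 0.26. A paired fit was added for the L-NIO sides only. The pairing was inferred from these values, which do not settle it for either model. Alternatives were DESeq2 1.42.0, limma 3.58.1 on log2(FPKM + 0.1) or log2(FPKM + 1), other scalings and filters, fits of the groups compared, a replicate block and leaving out each library. Leaving out libraries in pairs, and the paired fit of the L-NIO libraries alone, were chosen after seeing the data.

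Sequences were read from GENCODE M21 and RefSeq tables of build GRCm38, not from the build that the processing notes name for the counts. The lengths implied by counts and FPKM equalled the GENCODE M21 exon lengths of the nuclear members, such as 8086 bases for Ndufs1. Which build lay behind the deposited values was not tested. With another gene, 12 of the 40 nuclear members share exon bases in that annotation, at most 19.7% of their length (Uqcrc2).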

Additional observations from a re-analysis of the deposited data

Results flagged for a closer look

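Ndufa4 lay on opposite sides of the mean of the saline site in the lesions. Relative to the Sham_Ipsil mean, its mean difference was -18.4 CPM in LPC_Ipsil, where all 3 libraries were below every sham library, and 2.83 CPM in LNIO_Ipsil. It was singled out because every LPC_Ipsil library was below the sham mean and every LNIO_Ipsil library above it, although the LNIO_Ipsil libraries (110, 113 and 108 CPM) overlapped with those of Sham_Ipsil (104, 109 and 110 CPM). The difference between the lesions themselves was tested (LNIO_Ipsil over LPC_Ipsil log2 fold change 0.31 ± 0.19 SE, unadjusted p = 0.121, edgeR adjusted p = 0.647) and did not pass.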

How the results depend on the processing

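Of the mitochondrially encoded members, 0 were called under any of the alternatives in any comparison. Of the nuclear encoded members, 2 were called in LPC_Ipsil over Sham_Ipsil with DESeq2 (Ndufs1, log2 fold change -0.38, adjusted p = 0.0215, and Cycs, -0.45, adjusted p = 0.0472), and 1 (Ndufs1, -0.40, edgeR adjusted p = 0.0471) without LPC_Ipsil replicate 3 and LPC_Contra replicate 2. Over all alternatives Ndufs1 ran from -0.47 to -0.29 with adjusted p = 0.0215 to 0.324, and Cycs from -0.53 to -0.40 with adjusted p = 0.0472 to 0.315.

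The number of all genes called moved far more, and the cause was not tested. For LPC_Ipsil over Sham_Ipsil, against 871, it was 524 with every gene of at least 1 count, 1512 with DESeq2, 0 with only the groups compared, 3, 3 and 4 with limma at pseudocounts of 0.1 and 1 and with no filter, and 0 to 2360 over fits that left out libraries. The replicate block gave 652. For LNIO_Ipsil over Sham_Ipsil, against 0, it was 1 with library totals only, 1 with at least 1 count, 237 with DESeq2, 378 with only the groups compared, 1, 1 and 3 with limma, 1 with the replicate block, and 0 to 469 over fits that left out libraries. For LPC_Contra over Sham_Ipsil, against 1, it was 28 with DESeq2, 0 with only the groups compared, 2 with limma and no filter, 0 with the replicate block, and 0 to 2 over fits that left out libraries. For LNIO_Contra over Sham_Ipsil, against 0, it was 1 with at least 1 count, 2 with DESeq2, 3 with only the groups compared, 1 with limma, 1 with the replicate block and 0 to 1 over fits that left out libraries. For LNIO_Ipsil over LPC_Ipsil, against 0, it was 1 with at least 1 count, 18 with DESeq2, 2, 1 and 3 with limma, and 0 to 414 over fits that left out libraries. For LPC_Ipsil over LPC_Contra, against 0, it was 700 with DESeq2, 2 with limma and no filter, and 0 to 1283 over fits that left out libraries. For LNIO_Ipsil over LNIO_Contra, against 0, it was 180 with DESeq2, 358 with only the groups compared, 1 with limma and no filter, 683 with the replicate block on these libraries alone, and 0 to 393 over fits that left out libraries. The replicate block called no member in any comparison.

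Several single genes changed sign when libraries were left out. In LNIO_Ipsil over Sham_Ipsil, ND1 ran from -0.033 to 0.38, CYTB from -0.012 to 0.44 and COX1 from -0.070 to 0.42, each lowest without LNIO_Ipsil replicate 1. In LPC_Contra over Sham_Ipsil, ND4L ran from -0.59 to 0.017 and ND5 from -0.39 to 0.017, each highest without LPC_Contra replicate 2. In LPC_Ipsil over LPC_Contra, COX2 ran from -0.25 to 0.023, highest without LPC_Ipsil replicate 3 and LPC_Contra replicate 2. In LNIO_Ipsil over LNIO_Contra, ND5 ran from -0.16 to 0.40 and ND4 from -0.21 to 0.36, each lowest without LNIO_Ipsil replicate 1. With 3 libraries per group, the median SE of a log2 fold change in LPC_Ipsil over Sham_Ipsil was 0.17 for the nuclear and 0.21 for the mitochondrial members, which sets the size of change that could be told from 0. Counts were lowest for Ndufb8, at 50 to 133 per library.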
